A study of Rattus norvegicus with 8 samples.

Results

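The 10 genes described here belong to the microfibril and elastic fibre system and were looked up by symbol in a table of 13536 gene rows from rat nucleus pulposus cells, and 8 of the 10 had a row. These were the fibrillins Fbn1 and Fbn2, the fibulins Fbln2 and Fbln5, the latent TGF-beta binding proteins Ltbp1, Ltbp2 and Ltbp3, and Emilin1. Eln and Mfap2 are not analysed here. The 8 libraries came from primary nucleus pulposus cells, which populate the soft core of the intervertebral disc, expanded from explants of Wistar rat spines. In the 4 ShHuR libraries the cells carried a lentiviral hairpin against HuR, the RNA-binding protein encoded by Elavl1, and in the 4 ShCTR libraries a MISSION PLKO.1 hairpin with no target. Cells of both groups had been held at 1% oxygen for 24 h before RNA was collected. The labels do not say how many animals or hairpin sequences were used, so p-values measure the spread between these libraries, which may be technical.

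Fibrillins are large glycoproteins that join end to end into microfibrils, which bear load by themselves and also form the sheath on which elastin is laid down. LTBPs belong to the same protein superfamily. LTBP1 and LTBP3 hold TGF-beta in its latent form and tether it to the matrix, while LTBP2 does not bind latent TGF-beta. Fibulins link microfibrils, elastin and cell surface receptors, and EMILIN1 lies at the boundary between the elastin core and the microfibrils. HuR is known for binding AU-rich stretches of messenger RNA and altering their stability and translation.

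The knockdown was seen in every ShHuR library. Elavl1 stood at 63.8, 6.06, 8.36 and 49.6 normalized counts in ShHuR replicates 1 to 4, against 555, 699, 583 and 644 in ShCTR replicates 1 to 4. A normalized count is a read count after division by its library's size factor, as the authors deposited it. The share of Elavl1 left was highest in replicate 1, at 11.5% of the same-numbered ShCTR library. Depth was 6797360 to 8038192 recovered reads in ShHuR libraries and 9096738 to 12179515 in ShCTR libraries, so the ShHuR libraries were shallower. Libraries with the same replicate number resembled each other, with correlations of their deviations from the group means of 0.63 to 0.87 across genes. Libraries of numbers 2 and 3 also resembled each other across groups, at 0.62 for ShHuR replicate 2 with ShCTR replicate 3 and 0.43 for ShHuR replicate 3 with ShCTR replicate 2. Both libraries of number 1 stood apart from the rest on the first principal component, which held 57.2% of the variance. Of 21 listed nucleus pulposus and notochord markers 15 had a row. In ShHuR and ShCTR libraries their summed level was 13249 to 43710.3 and 15455 to 42294 normalized counts, so the ranges overlapped. In the limma fit that has the replicate number as a block, used below, 3 of the 14 tested markers fell and 0 rose, while 8.05% of all rows were lower and 7.16% higher. Their median log2 fold change was −0.15. With pair 1 left out, 4 fell and 3 rose, where 23.9% of all rows were called. For the annulus fibrosus and fibroblast markers the ranges of the sum did not overlap: it was 16592 to 54880.2 normalized counts in ShHuR and 57251 to 101259 in ShCTR. Of these 12 markers 7 fell while 1 rose, and 9 fell while 2 rose with pair 1 left out. For each of these marker lists limma called 0 genes without the block and 0 with the block when pair 4 was left out, as it did over all rows. Sums for smooth muscle were 8679.8 to 56625 in ShHuR and 12308 to 41639 in ShCTR, for endothelium 436 to 1432 in ShHuR and 261 to 569.8 in ShCTR, and for leukocytes 563 to 1290.1 in ShHuR and 334 to 993 in ShCTR. In RNA from whole cultures, fewer cells of a type and less RNA per cell cannot be told apart, and the part of these markers in the values below was not tested.

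Promoter sequences of 3 genes on which the results turn are given for orientation: Ltbp1 and Ltbp2, whose levels ran together across the libraries, and Fbn1, which went the other way. Each is the RefSeq window of the GRCr8 assembly from 250 bases before to 50 bases after the annotated gene start, written 5′ to 3′. The Fbn1 window is chr3:133203341-133203640, minus strand, the Ltbp1 window chr6:26177252-26177551, minus strand and the Ltbp2 window chr6:110257249-110257548, minus strand. Capitals mark the letters CAGAC (the SMAD box) and GGGCGG (the GC box), sought on both strands.
Fbn1: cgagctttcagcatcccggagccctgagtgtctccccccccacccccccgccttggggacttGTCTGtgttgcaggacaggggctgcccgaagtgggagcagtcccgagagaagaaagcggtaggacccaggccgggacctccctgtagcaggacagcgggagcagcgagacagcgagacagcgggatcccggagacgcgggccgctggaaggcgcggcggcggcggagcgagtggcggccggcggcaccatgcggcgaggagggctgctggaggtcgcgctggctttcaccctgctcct
Ltbp1: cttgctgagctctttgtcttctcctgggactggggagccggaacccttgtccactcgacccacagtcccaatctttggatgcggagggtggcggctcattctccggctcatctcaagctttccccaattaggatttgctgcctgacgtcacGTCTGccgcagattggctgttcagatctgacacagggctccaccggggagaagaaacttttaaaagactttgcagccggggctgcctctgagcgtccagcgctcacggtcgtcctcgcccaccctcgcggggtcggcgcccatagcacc
Ltbp2: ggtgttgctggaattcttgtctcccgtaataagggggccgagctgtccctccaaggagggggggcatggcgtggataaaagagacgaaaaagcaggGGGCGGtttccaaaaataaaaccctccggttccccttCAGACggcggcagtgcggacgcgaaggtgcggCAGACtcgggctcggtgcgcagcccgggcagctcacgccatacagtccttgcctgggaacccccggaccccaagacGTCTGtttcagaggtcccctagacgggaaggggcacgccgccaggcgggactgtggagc
CAGAC occurred 1 time in the Fbn1 window, 1 time in the Ltbp1 window and 3 times in the Ltbp2 window, and 50.1% of 33469 rat promoter windows hold it at least once. GGGCGG was in the Ltbp2 window, absent from the letters of the other windows, and present in 33.1% of all windows. None of the 3 windows held TGACTCA (the AP-1 site, 4.63% of all windows) or TATAAA (the TATA box, 14.2%). These are matches of letters and say nothing of binding. In the Fbn1 window the 50 bases from the annotated gene start begin with ATG and hold no stop codon in that frame. That annotated start may therefore be the start of coding sequence, and where transcription begins was not tested. The presence or absence of a box in that window is not read as that of its promoter.

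Of the fibrillins, Fbn1 rose in the test that has the replicate number as a block, and Fbn2 gave too few reads to be tested. Fbn1 (ENSRNOG00000007302), the main fibrillin of adult tissue, was at 1320.5, 4065, 2465 and 1774 normalized counts in ShHuR replicates 1 to 4, against 1054, 2246, 1759 and 975 in ShCTR replicates 1 to 4. It was higher in the ShHuR library of each same-numbered pair, yet the groups overlapped, since ShHuR replicates 1 and 4 lay below ShCTR replicate 2. Its means were 2406 ± 1202 in ShHuR and 1508 ± 605 in ShCTR (SD, n = 4 each), so ShHuR stood at 159.5% of the control mean. The log2 fold change, computed on log2(value + 1), was 0.63 with an SE of 0.13 and a 95% interval of 0.34 to 0.92 in limma with the replicate block (adjusted p = 0.0221). Without the block the log2 fold change had an SE of 0.40 and an adjusted p of 0.744 in limma, and an exact permutation test over the 8 libraries gave p = 0.2 (two-sided). The rise within pairs was 0.33, 0.86, 0.49 and 0.86 on the log2 scale for replicates 1 to 4, so the smallest was in pair 1. The call was lost when pair 2 or pair 4 was left out (adjusted p = 0.111 and 0.112 in limma with the block), while the log2 fold change stayed at 0.56 in each case. Those fits called 62 and 0 of all 11847 tested rows. Without pair 4 Elavl1 was not called either (adjusted p = 0.0549 in limma with the block), so that lost call is not particular to Fbn1. Without pair 2 Elavl1 was still called (adjusted p = 0.0415 in the same fit).

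Fbn2, the fibrillin that dominates in embryonic tissue, was close to the detection limit. Its normalized counts were 6.08, 0, 16.7 and 6.08 in ShHuR replicates 1 to 4, from 4, 0, 16 and 6 reads, against 4.67, 0.732, 3.65 and 11.6 in ShCTR replicates, from 5, 1, 4 and 13 reads. The 0 reads in ShHuR replicate 2 allow a level of up to 3.03 normalized counts, taking 3 reads as the limit for counting error alone. Higher and lower libraries were found in both groups, and the pairs split 2 against 2. Fbn2 did not reach the level needed for testing, which was 10 normalized counts in at least 4 libraries. It was the 1 member with a row that was not tested, and a difference was not detectable at this depth.

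**Figure D1:**
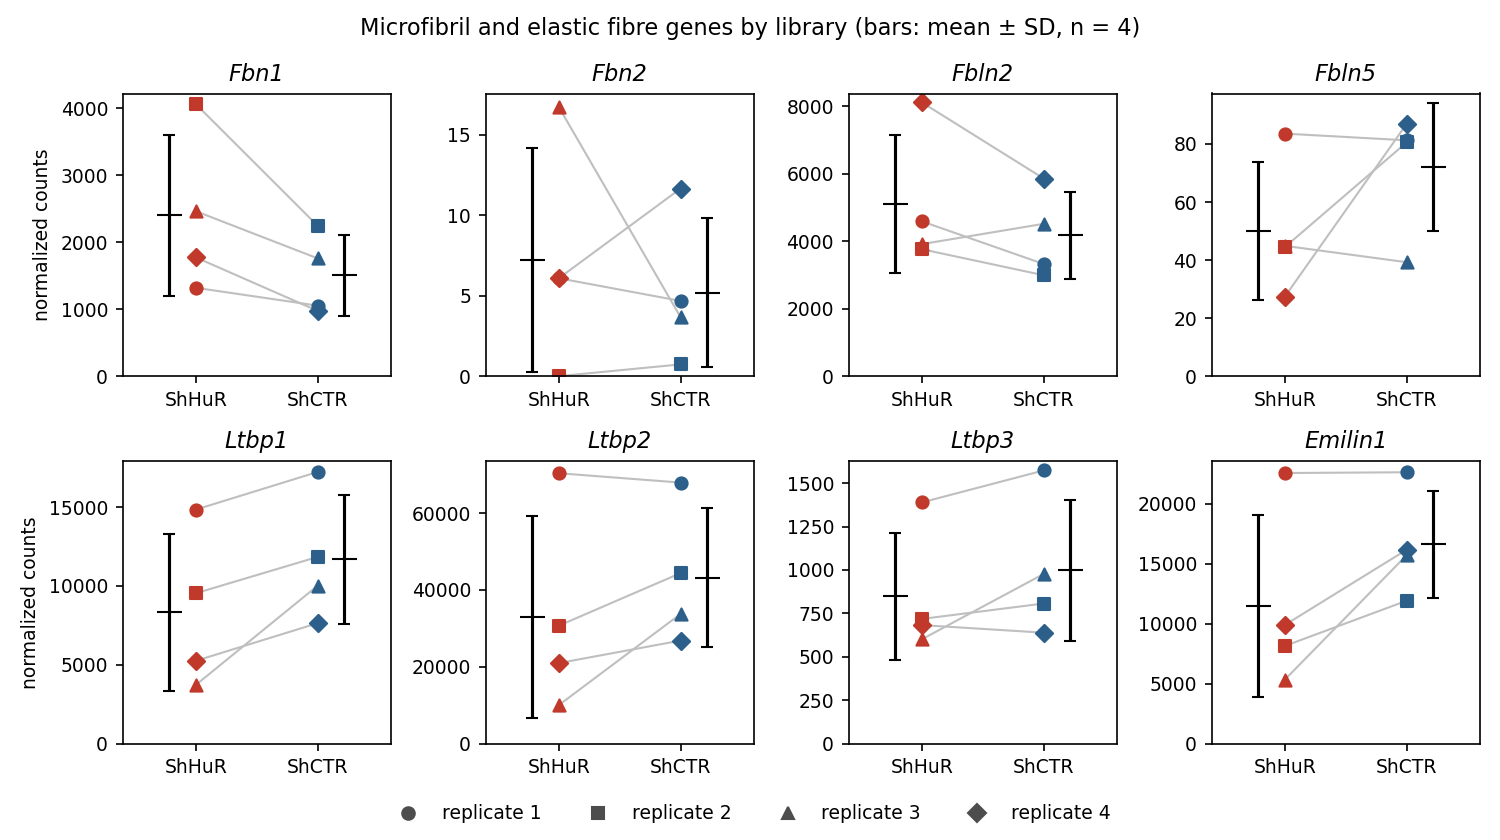
Normalized counts of the 8 genes in each library, with ShHuR left of ShCTR, 1 marker shape per replicate number, grey lines joining libraries of the same number, and mean ± SD (n = 4) beside each group. Each vertical axis starts at 0. Fbn1 is higher in ShHuR along each of the 4 lines, Ltbp1 is lower along each of the 4, and the groups overlap in every panel.

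Ltbp1 was lower in ShHuR in all 4 pairs and Ltbp2 and Ltbp3 each in 3 of 4, but none passed limma with the block and all pairs. Of all tested rows 41.7% lay on 1 side in all 4 pairs. The LTBP genes were read from the same libraries, so their pairs do not add up as separate evidence. Ltbp1 (ENSRNOG00000033090), which anchors latent TGF-beta to the matrix, was at 14835, 9534, 3721 and 5249 normalized counts in ShHuR replicates 1 to 4, against 17222, 11837, 10015 and 7638 in ShCTR replicates 1 to 4. Each ShHuR value was below its same-numbered ShCTR value, and replicate 1 was the highest in both groups. The means were 8335 ± 4983 in ShHuR and 11678 ± 4076 in ShCTR (SD, n = 4 each), or 71.4% of the control mean. In limma with the block the log2 fold change was −0.62 (SE 0.22, 95% interval −1.12 to −0.12, adjusted p = 0.0877), and without the block its adjusted p was 0.795. Its differences within pairs 1 to 4 were −0.22, −0.31, −1.43 and −0.54. Without pair 1 Ltbp1 was called in limma with the block, at −0.76 (adjusted p = 0.0456). Without pair 3 it was at −0.36 (adjusted p = 0.223).

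Ltbp2, a microfibril protein that does not carry TGF-beta, had 70381, 30697, 10026 and 20961 normalized counts in ShHuR replicates 1 to 4, against 67941, 44394, 33776 and 26836 in ShCTR replicates 1 to 4. Replicate 1 was again the highest in both groups, and there the ShHuR value was slightly above the ShCTR value. The means were 33016 ± 26302 in ShHuR and 43237 ± 17983 in ShCTR (SD, n = 4 each). The log2 fold change was −0.65 with an SE of 0.32 in limma with the block (95% interval −1.38 to 0.08, adjusted p = 0.185). Pair by pair the differences were 0.05, −0.53, −1.75 and −0.36, so that pair 3 carried much of it, and without pair 3 the fold change was −0.28. Scaling by quantiles also moved it, to −0.20 (limma with the block, adjusted p = 0.672).

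Ltbp3, a further binder of latent TGF-beta, was at 1389, 718, 600.6 and 683 normalized counts in ShHuR replicates 1 to 4, against 1573, 807, 977 and 639 in ShCTR replicates 1 to 4. Of the 4 pairs 3 were lower in ShHuR and pair 4 was higher, by 0.10 on the log2 scale. The fold change was −0.24 (SE 0.14, 95% interval −0.56 to 0.08, adjusted p = 0.25 in limma with the block). Without ShCTR replicate 1 and without the block it turned to 0.01.

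Ltbp1 and Ltbp2 followed each other closely over the libraries. Pearson's r of their log2 values over the 8 libraries was 0.98, a description of points that share libraries and replicate numbers. The ratio of Ltbp2 to Ltbp1 was 4.74, 3.22, 2.69 and 3.99 in ShHuR replicates 1 to 4, against 3.95, 3.75, 3.37 and 3.51 in ShCTR replicates 1 to 4. The ratio means were 3.66 ± 0.90 in ShHuR and 3.65 ± 0.25 in ShCTR (SD, n = 4 each), with higher and lower pairs in equal number. The ratio of Ltbp3 to Ltbp1 was 0.094, 0.075, 0.16 and 0.13 in ShHuR replicates 1 to 4, against 0.091, 0.068, 0.098 and 0.084 in ShCTR, and it was higher in the ShHuR library of each pair.

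Emilin1 (ENSRNOG00000008246), which encodes the elastin microfibril interface protein, was lower in ShHuR in 3 pairs and level in the other. Its normalized counts were 22542, 8136, 5319.6 and 9879 in ShHuR replicates 1 to 4, against 22606, 11904, 15699 and 16151 in ShCTR replicates 1 to 4. In pair 1 the libraries differed by −0.0041 on the log2 scale, and outside that pair the 3 ShHuR values lay below all ShCTR values. The means were 11469 ± 7617 in ShHuR and 16590.1 ± 4439.7 in ShCTR (SD, n = 4 each), or 69.1% of the control mean. The log2 fold change of −0.71 (SE 0.25, 95% interval −1.28 to −0.13) did not pass limma with the block (adjusted p = 0.0905) or without it (adjusted p = 0.738). Without pair 1 Emilin1 was called in limma with the block, at −0.94 (adjusted p = 0.0234). Without pair 3 it was at −0.42 (adjusted p = 0.245). In the plot of Emilin1 against Fbn1 the ShHuR libraries of pairs 2, 3 and 4 lie below and to the right of their ShCTR libraries. The ratio of Emilin1 to Fbn1 was 17.1, 2.00, 2.16 and 5.57 in ShHuR replicates 1 to 4, against 21.5, 5.30, 8.92 and 16.6 in ShCTR replicates 1 to 4. It was lower in the ShHuR library of every pair, with log2 differences of −0.33 to −2.05, and the groups overlapped.

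**Figure D2:**
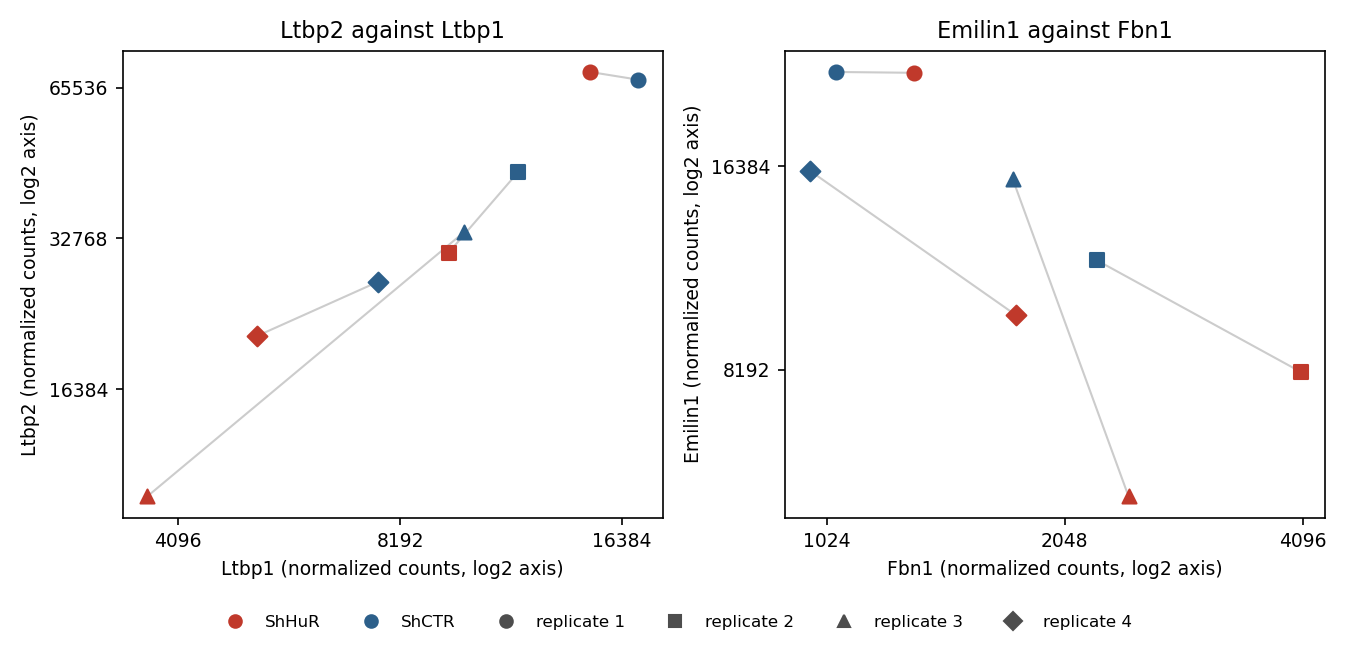
Normalized counts of Ltbp2 against Ltbp1 (left) and of Emilin1 against Fbn1 (right) in the 8 libraries, on log2 axes, with ShHuR in red, ShCTR in blue, 1 marker shape per replicate number and grey lines joining same-numbered libraries. Ltbp1 and Ltbp2 lie along 1 diagonal with r = 0.98, whereas the ratio of Emilin1 to Fbn1 is lower in ShHuR in each of the 4 pairs.

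The fibulins did not pass the test. Fbln2, whose product binds fibrillin, was at 4592, 3765, 3915 and 8119 normalized counts in ShHuR replicates 1 to 4, against 3326, 2993, 4517 and 5861 in ShCTR replicates 1 to 4. Replicate 4 was the highest in both groups, and 3 of the 4 pairs were higher in ShHuR. The log2 fold change was 0.27 (SE 0.15, 95% interval −0.08 to 0.61, adjusted p = 0.235 in limma with the block). It was 0.42 without pair 3, and 0.016 in the fit without the block and without ShHuR replicate 4. Fbln5, which elastin deposition is known to need in mice, was at 83.6, 44.4, 44.9 and 27.3 normalized counts in ShHuR replicates 1 to 4, against 81.3, 80.5, 39.3 and 86.9 in ShCTR replicates 1 to 4. Pairs 2 and 4 were at −0.84 and −1.63 on the log2 scale, and pairs 1 and 3 were slightly higher in ShHuR. The fold change was −0.56 with an SE of 0.31 (95% interval −1.28 to 0.15, adjusted p = 0.23 in limma with the block), on 27 to 110 reads per library. Leaving out pair 4 brought it to −0.20. The ratio of Fbln5 to Fbln2 was lower in ShHuR in 3 of the 4 pairs, and its means were 0.011 ± 0.0061 in ShHuR and 0.019 ± 0.0085 in ShCTR (SD, n = 4 each).

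Set side by side, 1 of the 7 tested members was called in limma with the block, or 14.3%, where 15.2% of all 11847 tested rows were called. The share called among these genes was thus close to that of the table as a whole. Without the block limma called 0 members and 0.0% of all rows, with 0 members and 978 rows at an unadjusted p under 0.05. Also without the block, edgeR called 0 rows, with 1010 at an unadjusted p under 0.05, and DESeq2 called 248 rows and 0 members. The targeted gene Elavl1 was itself not called without the block in limma (adjusted p = 0.126) or edgeR (adjusted p = 0.154). The lack of calls in those fits therefore says little about the members. Elavl1 was called by DESeq2 without the block (adjusted p = 8.08e-08) and by limma with it (adjusted p = 0.00663). DESeq2 with the block called 3 members, Fbn1 as higher and Ltbp1 and Emilin1 as lower (adjusted p = 0.00075, 0.0324 and 0.026), beside 17.3% of all rows. The same 3 genes passed in limma with the block when pair 1 was left out, where 23.9% of rows were called, and in the authors' deposited table, where 16.3% were. That table gives log2 fold changes of 0.61 for Fbn1, −0.56 for Ltbp1 and −0.62 for Emilin1, with adjusted p-values of 0.000722, 0.0388 and 0.0336. For Elavl1 the same table gives −1.82, where limma here gave −4.84. Its fold changes are therefore not taken as the same measure as those above. For the other members the authors' deposited table has adjusted p-values from 0.111 for Ltbp2 to 0.803 for Fbn2. Fbn1, Ltbp1 and Emilin1, 3 of the 7 tested members, lay on 1 side in all 4 pairs, with pair 1 of Emilin1 at −0.0041 and so nearly level, as did 41.7% of all rows. In none of the 7 were the groups free of overlap, against 5.6% of all rows. Both fits over the 7 are drawn in the plot of fold changes, where the intervals narrow when the replicate number is included.

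**Figure D3:**
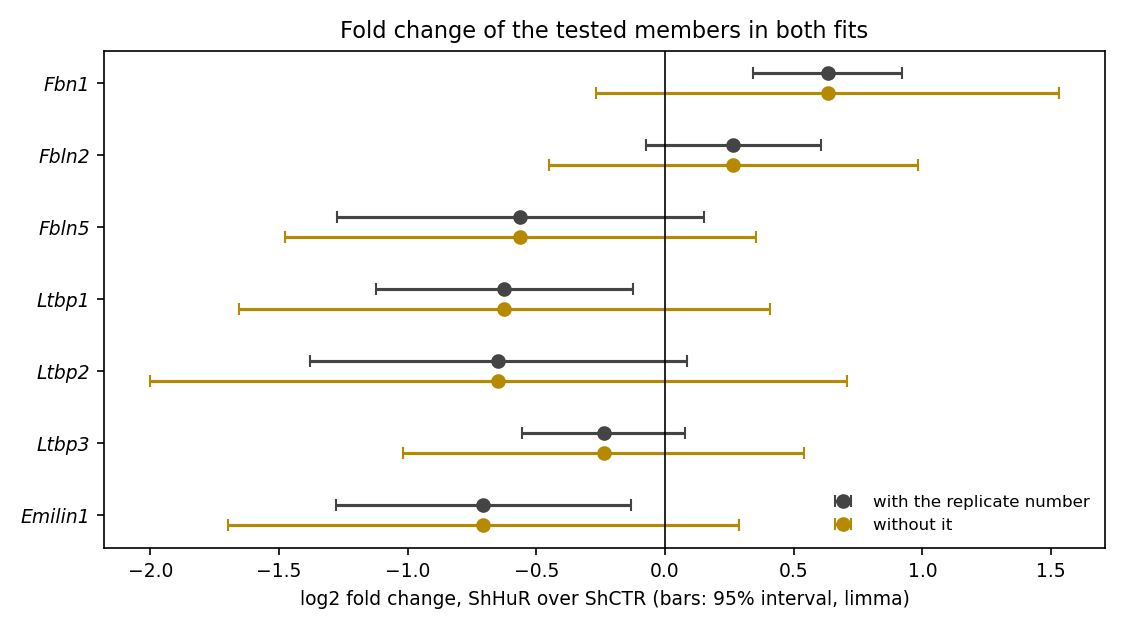
Log2 fold change of ShHuR over ShCTR for the 7 tested genes, with 95% intervals from limma, dark for the fit with the replicate number as a block and ochre for the fit without it. With the block the intervals of Fbn1, Ltbp1 and Emilin1 lie on 1 side of 0 before adjustment over all genes, and without it every interval spans 0.

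For 6 of the 7 tested members replicate number took more of the variation than group and remainder together. Of the variation in log2 values around the mean, replicate number took 72.1% for Fbn1, 68.0% for Ltbp1, 70.7% for Ltbp2, 85.3% for Ltbp3, 80.4% for Fbln2, 56.4% for Emilin1 and 37.5% for Fbln5, whose remainder was 39.4%. The median over all tested rows was 76.5%. Group took 26.8% for Emilin1, 24.5% for Fbn1, 23.1% for Fbln5, 20.1% for Ltbp1, 14.1% for Ltbp2, 9.32% for Fbln2 and 5.97% for Ltbp3, against a median of 9.27% over all tested rows. Within ShHuR the highest library exceeded the lowest 7.02-fold for Ltbp2, 4.24-fold for Emilin1 and 3.99-fold for Ltbp1, whereas within ShCTR these ratios were 2.53, 1.90 and 2.25. For Ltbp3 the ratio was 2.31 in ShHuR and 2.46 in ShCTR, the other way round. The pair with the smallest difference was pair 1 for 5 of the 7 tested members, and for 39.3% of all rows. The median size of the difference among the 7 was 0.18, 0.53, 0.70 and 0.54 on the log2 scale in pairs 1 to 4, against 0.23, 0.31, 0.43 and 0.31 over all tested rows. The 8 genes together took 1.11, 0.702, 0.334 and 0.602% of reads in ShHuR replicates 1 to 4, against 1.08, 0.833, 0.712 and 0.714% in ShCTR replicates 1 to 4. That share was lower in ShHuR in pairs 2, 3 and 4. Its largest part in every library was Ltbp2, at 0.128 to 0.681% of reads in ShHuR and 0.329 to 0.647% in ShCTR. The shares of Fbn1 and Fbln2 were higher in ShHuR in every pair. The median log2 fold change with the block was −0.56 for the 7 members and 0.01 for all tested rows. The −0.56 is the value of Fbln5, which had 27 to 110 reads per library and did not pass. Of the 7 members 5 had a negative and 2 a positive fold change.

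**Figure D4:**
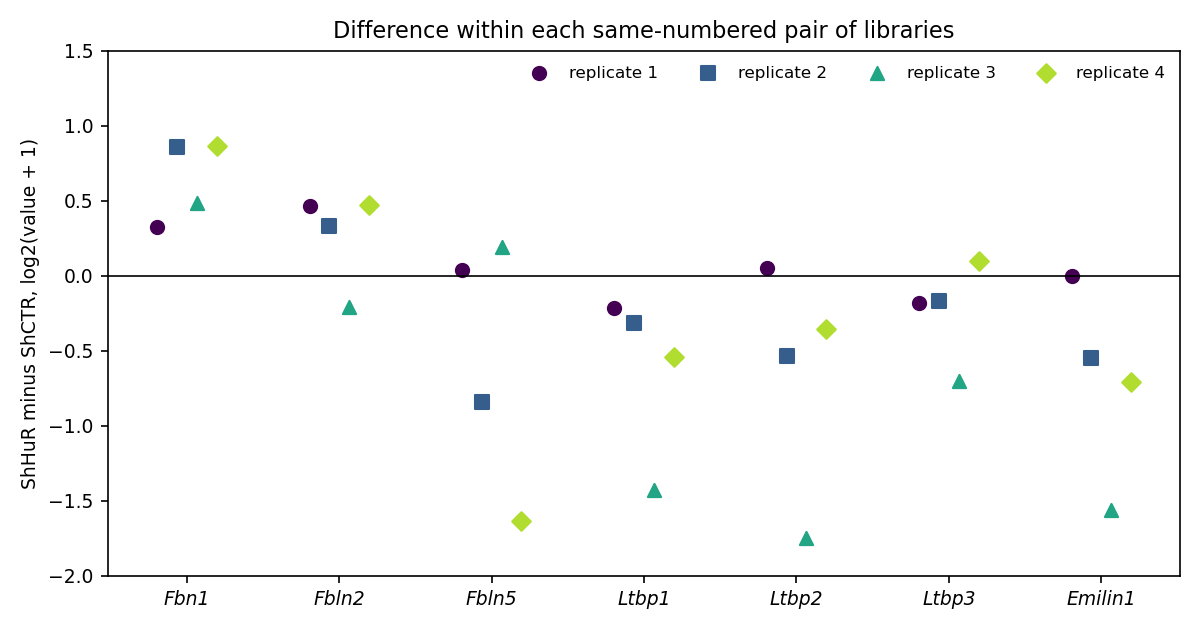
Difference of ShHuR minus ShCTR within each same-numbered pair of libraries, in log2(value + 1), for the 7 tested genes, with 1 marker and colour per replicate number. The 4 Fbn1 points lie above 0, the 4 Ltbp1 points below it, and pair 3 gives the lowest value for Ltbp1, Ltbp2, Ltbp3 and Emilin1.

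For each member the rows whose log2 values correlated best with it over the 8 libraries were taken as the closest in pattern, with no test. For Fbn1 these were Ston2, Tnnt3 and Sipa1, with r of 0.97, 0.97 and 0.96. For Emilin1 they were Sspn, which encodes sarcospan, Tmem25 and the sodium pump subunit gene Atp1b1, each at 0.99. Nexn, an actin-binding protein gene of the Z-disc, came among the 3 closest for Ltbp1 and for Ltbp2, at 0.98 and 0.99. Between members, r was 0.81 to 0.87 for Emilin1 with the 3 LTBPs and −0.77 for Emilin1 with Fbn1.

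The partners of these proteins were read from lists of the microfibril and latent TGF-beta pathway in the same limma fit with the block, where 7.16% of all rows were higher and 8.05% lower. The counts below are from all 4 pairs. In each list limma called 0 genes without the block and, with it, 0 without pair 4, as it did over all rows. With pair 1 left out the lists, in the order below, held 4, 2, 13, 8, 9 and 8 called genes. Leaving out pair 3 gave 1, 1, 5, 2, 1 and 2, and leaving out pair 2 gave 0, 0, 0, 1, 0 and 0. Of 12 other microfibril and elastic fibre genes 1 rose and 2 fell, with a median log2 fold change of −0.39. Tnxb, tenascin X, rose by 1.49 (SE 0.31) and the microfibril-associated Mfap3 fell by 0.87 (SE 0.15), with adjusted p-values of 0.0241 and 0.0157 in limma. Mfap3 was at 77.5 to 108.4 normalized counts in ShHuR and 129 to 199 in ShCTR, with no overlap. Npnt, a basement membrane ligand of integrins, fell by 2.80 but was not called by edgeR with the block (adjusted p = 0.0962). It was at 62.3, 0, 0 and 3.04 normalized counts in ShHuR replicates 1 to 4, against 75.7, 28.6, 5.48 and 40.3 in ShCTR. The size of its fall depends on the 1 added to each value before the log, and in pair 1 it was −0.28. Ltbp4, the remaining LTBP, and Efemp2, which encodes fibulin 4, were named after their values were seen and did not pass, at −0.15 and −0.27. Among 6 fibrillin-associated ADAMTS and ADAMTS-like genes, secreted proteins that bind or assemble with microfibrils, Adamtsl3 fell by 1.74 and Adamtsl4 fell by 0.89. None of the 6 rose in limma with the block, and the median was −0.19.

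Of 23 genes for elastin cross-linking, chaperones and processing 3 rose and 6 fell, with a median of −0.33. Pcsk5, a proprotein convertase, was at 263, 536, 642 and 751 normalized counts in ShHuR replicates 1 to 4, against 221, 219, 299 and 301 in ShCTR replicates 1 to 4. Each ShHuR value exceeded its same-numbered ShCTR value, and the rise was 0.99 (SE 0.18, adjusted p = 0.0192 in limma with the block). Bmp1, whose proteinase is known to activate lysyl oxidase and to cleave LTBP1, rose by 1.14 (SE 0.20). The lysyl oxidase-like genes Loxl1, Loxl2 and Loxl3, whose enzymes cross-link elastin and collagen, fell by 0.76, 1.44 and 1.25. Loxl4 was at 0.28 and higher in ShHuR in 3 of 4 pairs, without passing (adjusted p = 0.181 in limma with the block). Lox itself was at −0.61 and did not pass (adjusted p = 0.266 in limma with the block). Loxl1, Loxl4 and Lox were named after their values were seen.

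The list of ligands and activators of latent TGF-beta also took in BMP and GDF ligands and matrix proteoglycans. Among its 18 tested genes 2 rose and 4 fell, with a median of −0.14. The ligand gene Tgfb3 was at 12480 normalized counts in ShHuR replicate 1 and 1411 to 2402 in the other ShHuR libraries, against 4623 to 16110 in ShCTR. It fell by 1.51 (SE 0.32, adjusted p = 0.0255 in limma with the block), and Tgfb2 fell by 1.02 (SE 0.27, adjusted p = 0.0442), while Tgfb1 was at 0.58 (adjusted p = 0.153). Tgfb1 and Tgfb2 were named after their values were seen. Itgb8, part of an integrin that releases active TGF-beta, rose by 2.44, Bmp2 rose by 0.72 and Bmp4 fell by 2.18. Of 22 receptors, SMADs and response genes 4 rose and 2 fell, with a median of 0.15. The co-repressor gene Tgif1 rose by 0.72 and the co-receptor gene Tgfbr3 by 0.50, while Tgfbr1, the type I receptor, fell by 0.72 and the response gene Ctgf fell by 1.97.

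Of 15 proteases that cleave elastin or fibrillin and their inhibitors 6 rose and 1 fell, with a median of 0.38. The rises took in matrix metalloproteinases, Mmp9 at 4.59 and Mmp13 at 3.17 on the log2 scale along with Mmp3, and also the inhibitors Timp1, Timp3 and Slpi. Mmp3 and these inhibitors were named after their values were seen. Cst3, cystatin C, an inhibitor of cysteine proteases, fell by 0.72 (adjusted p = 0.0489 in limma with the block). The plot of all tested genes by list shows these movements beside the members.

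**Figure D5:**
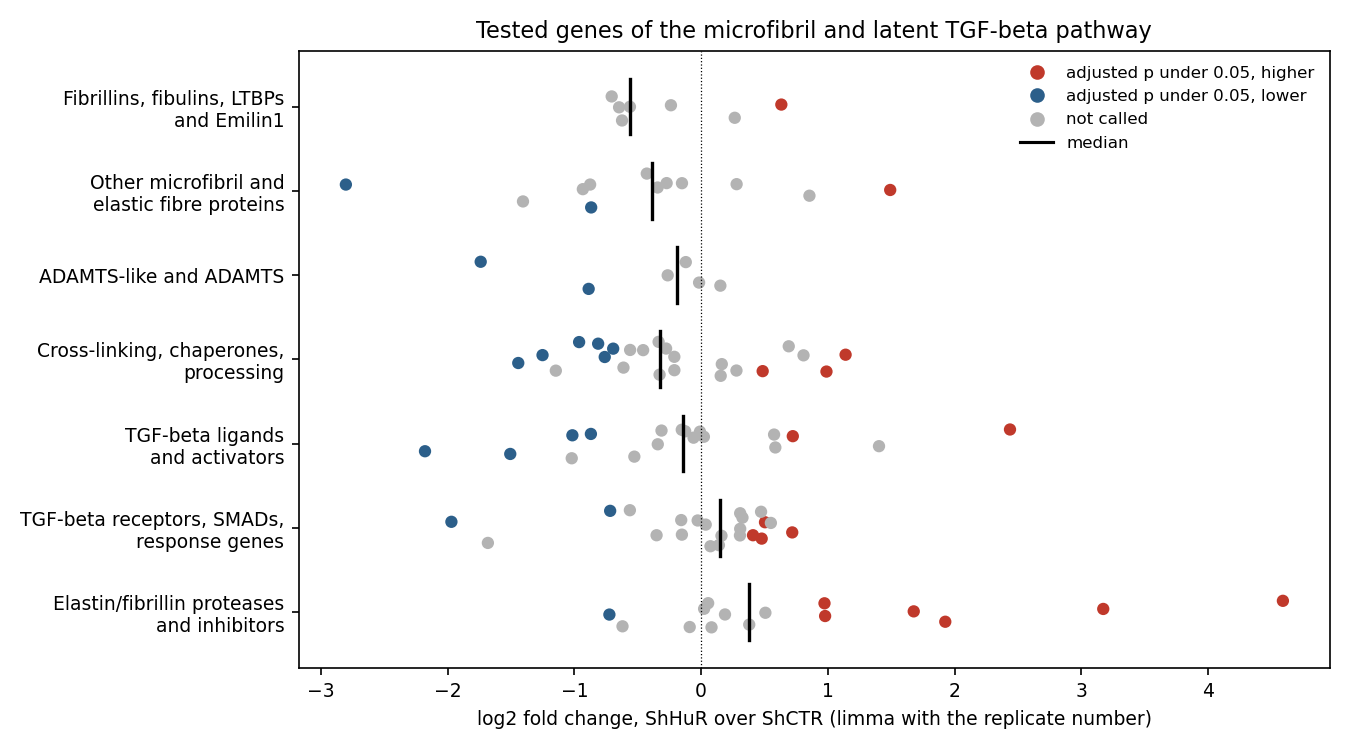
Log2 fold change of ShHuR over ShCTR from limma with the replicate number as a block, 1 point per tested gene, with red for higher, blue for lower and grey for not called at an adjusted p of 0.05, and a black bar at each list's median. The members' median of −0.56 is the value of Fbln5, which was not called, and Fbn1 is the called gene. The list of proteases and inhibitors has a median of 0.38 with 6 higher and 1 lower.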

How the data were processed

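RNA-seq of 8 libraries was read from the authors' deposited table of gene values, which are a signal: read counts divided by 1 size factor per library. Whole reads could be recovered, since 100% of values came out whole within 0.01 read. The authors' deposited log2 fold changes and adjusted p-values are quoted where named. The aligner, genome build, annotation and use of strand were not given in the sources used here. Identifiers in the deposited table were out of register: 2116 rows were matched by value to the authors' list of called genes, and the symbol was shared in 2116 of them but the identifier in 3, so symbols were used and identifiers come from that list alone. Symbols turned into dates (21 rows, 0.258% of reads) could not be matched by name.

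Values were taken as log2(value + 1), rows with at least 10 normalized counts in at least 4 libraries were kept (11847, with 1689 dropped), and limma 3.58.1 in R 4.3.3 was fitted with trend to the 8 libraries, with Benjamini-Hochberg adjustment over all kept rows at 0.05. The fit was made without and with the replicate number as a block. The labels give the numbers without saying what they share, and every same-numbered pair had a correlation of deviations over 0.1 (0.63 to 0.87; ShHuR replicate 2 with ShCTR replicate 3 reached 0.62), so same-numbered libraries were treated as pairs and the call is given from the blocked fit beside the other. No 2 libraries of a group agreed within sampling noise (chi-square per degree of freedom of at least 43.5). edgeR 4.0.16 and DESeq2 1.42.0 on the recovered reads, other pseudocounts, filters and scalings, and leaving out each replicate or pair were the alternatives. The fits were tested on simulated data. Exact permutation tests used scipy 1.17.1 and cannot go below p = 0.0286 for 4 against 4. Intervals and the limit set by 0 reads cover counting or fitting error only.

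The text names the 10 listed genes, Elavl1, up to 2 higher and 2 lower called genes per pathway list by size of change, and the 3 rows closest in pattern to a member. Ltbp4, Efemp2, Lox, Loxl1, Loxl4, Tgfb1, Tgfb2, Mmp3, Timp1, Timp3, Slpi, Mmp12 and Aspn fall outside this rule and were chosen after their values were seen. The members and lists were chosen with earlier results of these data known.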

Additional observations from a re-analysis of the deposited data

Results flagged for a closer look

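Fbln5 in ShCTR replicate 3 was at 39.3 normalized counts, while the other ShCTR libraries were at 80.5 to 86.9. The gap was 0.866 of the group's range. Ltbp3 in ShHuR replicate 1 was at 1389 normalized counts, while the other ShHuR libraries were at 600.6 to 718, a gap of 0.851 of the range. ShCTR replicate 1 was also the highest of its group for Ltbp3. Chance marks about 1 in 20 groups, and 18 groups were examined.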

How the results depend on the processing

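Fbn1, Fbln2, Fbln5, Ltbp1, Ltbp2 and Emilin1 kept their direction in 27 of 27 settings and Ltbp3 in 26. The settings share libraries, and limma with and without the block, without a filter and without a trend gives the same log2 fold change by design. The 27 are therefore not separate checks of direction. Over these settings the log2 fold change was 0.34 to 0.88 for Fbn1, 0.016 to 0.45 for Fbln2, −0.84 to −0.20 for Fbln5, −0.97 to −0.30 for Ltbp1, −1.13 to −0.19 for Ltbp2, −0.50 to 0.0072 for Ltbp3 and −1.10 to −0.41 for Emilin1. The replicate block decided the calls: limma called 0 genes without it and 1802 with it, and of members 0 without it and 1 with it. With the block, edgeR called 1845 genes, DESeq2 2053, no filter 1770, a pseudocount of 0.5 1787 and of 5 1831, quantile scaling 1648, TMM 1737, reads thinned to the smallest total 1956 and limma without a trend 573. Members called were 1 in each of these except DESeq2 with 3 and no trend with 0. DESeq2 without the block called 248 genes. Leaving out 1 library without the block gave 0 to 105 genes, the highest without ShHuR replicate 1. Leaving out a pair with the block gave 0 to 2831 genes (2831, 62, 523 and 0 on omitting pairs 1, 2, 3 and 4) and 0 to 3 members. The Elavl1 log2 fold change was −4.84 with and without the block, without a filter and without a trend. It was −4.50 by edgeR with the block, −4.29 by DESeq2 without the block and −4.88 with it, −4.89 and −4.51 with pseudocounts of 0.5 and 5, −4.87 with quantile scaling and with TMM, −4.70 after thinning, and −5.42 to −4.25 with a pair left out (−4.47 for pair 3), and −5.37 without the block and without ShHuR replicate 1. The causes were not tested. Thinning moved the median of all genes to 0.14, from 0.01, and the share of calls that were higher to 65.3%, from 47.1%; TMM gave 40.4% and quantile scaling 45.1%. Fbn1 was at 0.75 after thinning.

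Depth limits Fbn2, with 0 to 16 reads per library, and Fbln5, with 27 to 110. Transcript lengths were not used here, so ratios between genes and shares of reads do not give relative numbers of transcripts. They are compared between libraries only. What the replicate numbers mark is not stated in the labels.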

Other observations

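The genes of the pathway lists that were too low for testing held 2 with large differences, chosen after their values were seen. Mmp12, macrophage elastase, was at 1.52, 93.9, 740.6 and 63.8 normalized counts in ShHuR replicates 1 to 4, against 0.934, 6.59, 8.22 and 6.27 in ShCTR replicates 1 to 4. It was higher in ShHuR in pairs 2, 3 and 4, with 709 reads in ShHuR replicate 3, and each library of pair 1 had 1 read. In limma with the block and no filter its log2 fold change was 3.38 (adjusted p = 0.0325). Aspn, asporin, a small leucine-rich proteoglycan that binds TGF-beta, was at 1.52, 2.02, 0 and 1.01 normalized counts in ShHuR, against 7.47, 12.4, 9.13 and 8.07 in ShCTR. The groups did not overlap, on 0 to 2 reads per ShHuR library and 8 to 17 per ShCTR library, and the adjusted p was 0.0195 in limma with the block and no filter.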
